A study of Homo sapiens with 9 samples.

Results

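The genes described here are 41 genes of the actin cytoskeleton: actins, the proteins that build, bundle, clamp and anchor actin filaments, and non-muscle myosin II. Many of them are known targets of serum response factor (SRF). The list was a fixed list of gene symbols, and each gene was represented by the probe set with the highest mean over all 9 arrays among probe sets annotated to that gene alone. Of the 41 genes, 37 had such a probe set, out of 19775 genes on the array that did. A filter on low signals (a mean above the 40th percentile of all probe sets, a signal of 11.5) left 36 members among 13736 genes. ACTG1 (cytoplasmic gamma-actin), FLNA (filamin A), ACTR2 (an actin-related subunit of the Arp2/3 complex) and TPM3 (a tropomyosin) had no single-gene probe set and carry no value here. For ACTG1, 9 probe sets named it together with ACTB. CNN1 (calponin 1, typical of smooth muscle) had mean signals of 2.85 ± 0.538 (SD, n = 3) on vector arrays, 1.35 ± 0.666 on ERBB2 arrays and 5.38 ± 6.50 on EGF arrays, and was not tested.

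MCF10A cells are immortalized epithelial cells from a human breast, do not form tumours, and depend on EGF to grow. Total RNA was hybridised to 3 arrays in each of 3 groups: cells infected with the empty pBabe retrovirus (vector), cells infected with pBabe-ErbB2 (ERBB2), and empty-vector cells given 50 ng/ml EGF for 2 h before harvest (EGF). All groups were infected with a retrovirus and then held in assay medium with 2% horse serum and no EGF; before that the line was kept in 5% horse serum with 20 ng/ml EGF, hydrocortisone, cholera toxin and insulin. The ERBB2 group therefore differs from vector by a lasting transgene and the EGF group by a short pulse of ligand. How long cells stayed in assay medium, and whether infected cells were selected or cloned, is not given in the sources used here. All replicates are labelled biological without naming separate infections; p-values then measure only how far these samples spread, which may be technical. Precision is limited by the number of arrays: an exact permutation test of 3 against 3 cannot go below p = 0.1, and tests below come from limma fitted over all probe sets.

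The values are linear signal intensities as the authors deposited them, and array medians ranged from 19.9 to 20.2 in vector, 17.9 to 20.1 in ERBB2 and 15.6 to 16.9 in EGF. The transgene was not seen as a higher ERBB2 signal on the brightest ERBB2 probe set, which read 174.0 ± 48.0 on vector and 98.8 ± 23.1 on arrays carrying the ERBB2 label (log2 change of -0.71, adjusted p = 0.00665), while a dim one rose from 12.6 ± 8.78 to 35.6 ± 2.51 (log2 change 0.89, adjusted p = 0.00926). "ERBB2 arrays" therefore means the arrays so labelled, and every direction drawn from them rests on that label. All 7 basal epithelial markers with a single-gene probe set passed the filter, 5 of them lower on ERBB2 than on vector, and 5 lower and 1 higher on EGF. The higher one was ITGA6, a laminin receptor subunit (688 to 1680.0, log2 change 1.27, adjusted p = 5.7e-08), and KRT14, a basal keratin, read 2640 ± 432 on vector, 149 ± 9.66 on ERBB2 and 1758 ± 48.5 on EGF. Of 8 fibroblast markers 4 passed the filter, 2 of them lower and 0 higher on ERBB2 than on vector (median log2 change -0.17). On EGF 1 was lower and 0 higher (median -0.05). DCN (decorin), lower in both, read 1345 ± 82.8 on vector, 378 ± 73.7 on ERBB2 and 433 ± 27.3 on EGF. COL1A2 and THY1 changed by 0.48 and 0.20 on ERBB2 and by 0.25 and 0.34 on EGF, none of them called. The part of either marker list in the results was not tested.

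Actin exists as monomers and as filaments, and cells shift between them through nucleators such as the Arp2/3 complex and formins, through severing and monomer-binding proteins, and through myosin II, which contracts filaments that are anchored at focal adhesions. Monomeric actin holds the cofactors MRTFA and MRTFB in the cytoplasm; when filaments grow, the cofactors enter the nucleus and, with SRF, switch on many of the genes for actin and its partners. SRF also works with ternary complex factors such as ELK3 and ELK4, which receive growth factor signals through the ERK pathway. SRF binds a 10-base element called the CArG box.

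The promoter windows of the members were searched for this element, and the ones that hold it in genes that were called are shown for reading beside the array values. RefSeq windows (GRCh38.p14, 250 bases before to 50 after a gene start) were available for 35 members, and 6 of these held a CArG box in at least 1 window (17.1%), against 438 of 27305 genes with a window (1.60%). Per window, it was 8 of 62 for members and 454 of 35116 for all (1.29%). Many members are known SRF targets, so a share above that of all genes can follow from how the list was made. ACTB and TAGLN were among the members without a window. The 6 genes were ACTG1, FLNA, ACTN1, TPM4, CNN2 and FHL2. Among the 30 members with a window that were also tested on the arrays, 4 held the box (13.3%). The element reads as a CArG box on either strand, so a match was counted once. A match describes the letters in this window and not a site of binding, and its absence says nothing of SRF at that gene. The 250 bases before the start are printed for the 4 tested genes, and for SRF itself, which is not a member but is known to be its own target; capitals mark the CArG box, and each runs 5′ to 3′ on the gene's strand. The windows lie at chr14:68977567-68977816 on the minus strand (ACTN1, alpha-actinin 1), chr19:16067288-16067537 on the plus strand (TPM4, tropomyosin 4), chr19:1026358-1026607 on the plus strand (CNN2, calponin 2), chr2:105438514-105438763 and chr2:105399052-105399301 on the minus strand (FHL2, a LIM-domain cofactor, at starts 1 and 2) and chr6:43171019-43171268 on the plus strand (SRF).
ACTN1: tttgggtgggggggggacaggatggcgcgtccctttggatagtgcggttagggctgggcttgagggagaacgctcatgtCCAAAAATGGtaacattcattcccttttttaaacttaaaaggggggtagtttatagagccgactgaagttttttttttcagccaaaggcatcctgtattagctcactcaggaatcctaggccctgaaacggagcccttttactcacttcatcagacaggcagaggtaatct
TPM4: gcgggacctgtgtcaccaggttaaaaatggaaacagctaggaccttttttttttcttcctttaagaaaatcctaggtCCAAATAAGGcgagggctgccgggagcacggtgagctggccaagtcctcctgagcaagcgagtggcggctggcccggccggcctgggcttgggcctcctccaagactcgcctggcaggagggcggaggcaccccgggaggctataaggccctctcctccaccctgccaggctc
CNN2: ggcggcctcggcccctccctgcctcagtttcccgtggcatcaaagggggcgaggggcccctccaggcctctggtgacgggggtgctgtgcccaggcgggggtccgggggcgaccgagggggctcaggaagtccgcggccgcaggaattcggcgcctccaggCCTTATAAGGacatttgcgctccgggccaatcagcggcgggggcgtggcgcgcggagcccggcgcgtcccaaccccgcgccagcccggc
FHL2 start 1: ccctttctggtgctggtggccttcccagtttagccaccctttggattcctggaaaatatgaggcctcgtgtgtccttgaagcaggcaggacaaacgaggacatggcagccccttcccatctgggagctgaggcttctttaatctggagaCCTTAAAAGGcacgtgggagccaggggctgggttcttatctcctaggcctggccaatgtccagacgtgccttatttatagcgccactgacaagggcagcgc
FHL2 start 2: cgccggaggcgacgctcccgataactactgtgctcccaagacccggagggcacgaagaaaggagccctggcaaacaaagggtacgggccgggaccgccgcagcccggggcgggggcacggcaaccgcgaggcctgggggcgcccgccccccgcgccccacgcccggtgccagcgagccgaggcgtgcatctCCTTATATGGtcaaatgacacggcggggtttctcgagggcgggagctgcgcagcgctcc
SRF: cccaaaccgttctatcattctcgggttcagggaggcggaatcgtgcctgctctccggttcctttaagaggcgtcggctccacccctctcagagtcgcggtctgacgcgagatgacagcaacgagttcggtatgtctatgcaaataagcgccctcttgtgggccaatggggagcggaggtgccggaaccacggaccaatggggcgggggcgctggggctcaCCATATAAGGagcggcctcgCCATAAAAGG

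The box began 171 bases before start 3 of ACTN1, 173 before start 1 of TPM4 and 89 before the start of CNN2, and 101 and 59 before starts 1 and 2 of FHL2, while SRF held boxes at 30 and 10. RefSeq lists 4 starts for ACTN1 and 3 for TPM4, and the window of 1 each held the box. Of the 4 starts of FHL2, 3 windows held it; start 3, not printed, overlaps start 1 and has the box at 85 bases. The 4 tested members with a box had higher signals than vector on ERBB2 arrays and on EGF arrays (ACTN1, TPM4, CNN2 and FHL2, all called, values with each gene below), but genes without a match in this window, such as VCL and ZYX, rose too.

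Against vector, members were called higher more often than lower. On ERBB2 arrays 17 of 36 members rose and 4 fell (adjusted p under 0.05), while of all 13736 tested genes 20.9% rose and 25.1% fell; 58.3% of members were called in either direction against 45.9% of genes. On EGF arrays 13 members rose and 3 fell, where 17.2% and 19.0% of genes did; 44.4% of members were called in either direction against 36.2%. The median log2 change of members was 0.11 for ERBB2 and 0.12 for EGF, and that of all tested genes was -0.07 and -0.10. Most members were bright: 31 of the 36 lay in the top 25% of tested genes by mean signal, where calls were more frequent. Within that class, a comparison added after the values were seen, 58.1% of members were called for ERBB2 against 71.8% of genes, and 45.2% against 61.9% for EGF, both below the share of genes as bright. In direction, 14 of these 31 members rose and 4 fell on ERBB2, where 1238 and 1228 of 3434 genes as bright did. For EGF 12 members rose and 2 fell, where 1206 and 919 of those genes did. Median log2 changes in this class were 0.10 for members and -0.02 for genes on ERBB2, and 0.18 and 0.05 on EGF. The 3 arrays of a group lay wholly above or below those of vector for 20 members on ERBB2 and 21 on EGF, where 52.7% and 48.7% of genes did so. Called changes of at least 2-fold were seen for 4 of 36 members on ERBB2 and 3 on EGF, where 13.5% and 6.52% of all tested genes had one. Both comparisons share the vector arrays, so their values are given side by side and not as 2 independent findings.

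**Figure D1:**
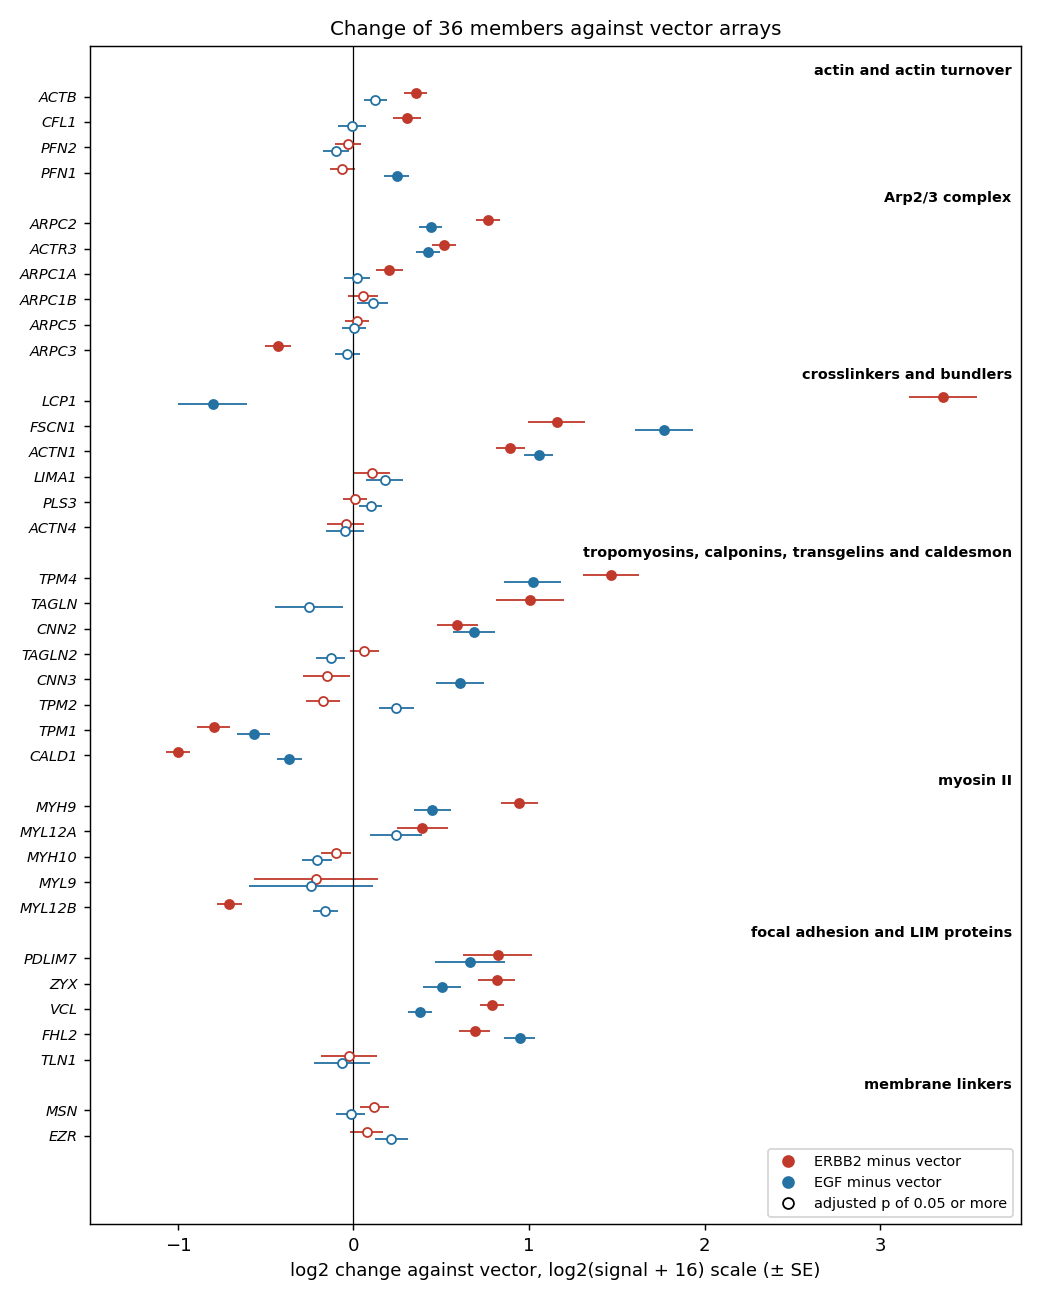
Log2 change against vector on the log2(signal + 16) scale for the 36 tested members, grouped by role; red is ERBB2 minus vector, blue EGF minus vector, bars are ± SE from limma (3 arrays a group), and open points have an adjusted p of 0.05 or more. LCP1 stands at 3.36 for ERBB2 and -0.80 for EGF, and CALD1 is the lowest member for ERBB2 at -0.999.

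Scaling moved the EGF comparison most. When array medians were made equal, the median change of all tested probe sets for EGF minus vector moved from -0.11 to 0.05, the share of calls that were higher moved from 44.8% to 67.4%, and 19 members rose and 3 fell in place of 13 and 3. For ERBB2 minus vector the members stayed at 17 and 4 with equal medians and were 15 and 4 under quantile normalization. The log2 changes below are as deposited, with no further scaling.

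Among the genes of actin itself and its turnover, by their brightest probe sets, beta-actin and cofilin were higher on ERBB2 arrays and profilin 1 was higher on EGF arrays. ACTB (beta-actin, the monomer itself) read 14468, 15783 and 14753 on the vector arrays, 20044, 17892 and 19667 on ERBB2 and 17818, 16021 and 15317 on EGF. By this probe set every ERBB2 array lay above every vector and EGF array. ACTB rose by 1.28-fold on ERBB2 (log2 change 0.36 ± 0.07 SE, adjusted p = 2.0e-04), and for EGF the change was 0.13 with adjusted p = 0.174. The EGF value passed the threshold under quantile normalization (0.33, adjusted p = 1.5e-06) and equal medians (0.29, adjusted p = 0.00109), and the ERBB2 value grew to 0.64 under quantile normalization. Adjusted p for EGF ranged from 1.5e-06 to 0.556 over 21 alternatives. The 2 other ACTB probe sets were nearly as bright, with means over all arrays of 15513 and 15230. On ERBB2 the first rose by 0.26 (adjusted p = 0.00994), and the second was not called (0.19, adjusted p = 0.05). In both, the ERBB2 arrays overlapped those of vector and of EGF. CFL1 (cofilin 1, which severs and disassembles filaments) read 8250 ± 348 on vector, 10257 ± 1530 on ERBB2 and 8207 ± 98.8 on EGF, a rise of 0.30 on ERBB2 (adjusted p = 0.0042) and a change of -0.01 on EGF (adjusted p = 0.963). Without ERBB2 replicate 3, which read 12007, the ERBB2 change was 0.19 (adjusted p = 0.0393), and without the variance trend it was not called (adjusted p = 0.0907). The other tested CFL1 probe set had means of 2409, 3609 and 3157. It rose on ERBB2 (0.58, adjusted p = 2.1e-05) and also on EGF (0.38, adjusted p = 0.00236). PFN1 (profilin 1, which feeds monomers to growing filaments) read 5140 ± 542, 4906 ± 190 and 6078 ± 60.5 on vector, ERBB2 and EGF. It rose by 0.25 on EGF (adjusted p = 0.0135); leaving out vector replicate 1 ended the call (0.16, adjusted p = 0.0875), as did a fit without the variance trend (adjusted p = 0.151). PFN2, another profilin, was called in no comparison, with means of 1722, 1687 and 1605.

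The arrays carry control probe sets along the ACTB transcript, and they did not move alike. The 3′ probe set read 12448 ± 939 on vector, 13600 ± 361 on ERBB2 and 13651 ± 867 on EGF, the middle one 7892 ± 538, 12561 ± 360 and 10487 ± 351.3, and the 5′ one 4695 ± 486, 10015 ± 441 and 6030 ± 706. The 5′ to 3′ ratio was 0.379 ± 0.055 on vector (0.325 to 0.436), 0.737 ± 0.051 on ERBB2 (0.701 to 0.796) and 0.443 ± 0.063 on EGF (0.378 to 0.505). No ERBB2 array overlapped the other groups. The same ratio for GAPDH, a glycolytic enzyme probed in the same way, was 0.847 ± 0.034, 0.869 ± 0.032 and 0.812 ± 0.045. This ratio is used as a sign of RNA and labelling quality, it moved with the ERBB2 group for ACTB and much less for GAPDH, and its part in the ERBB2 changes was not tested.

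**Figure D2:**
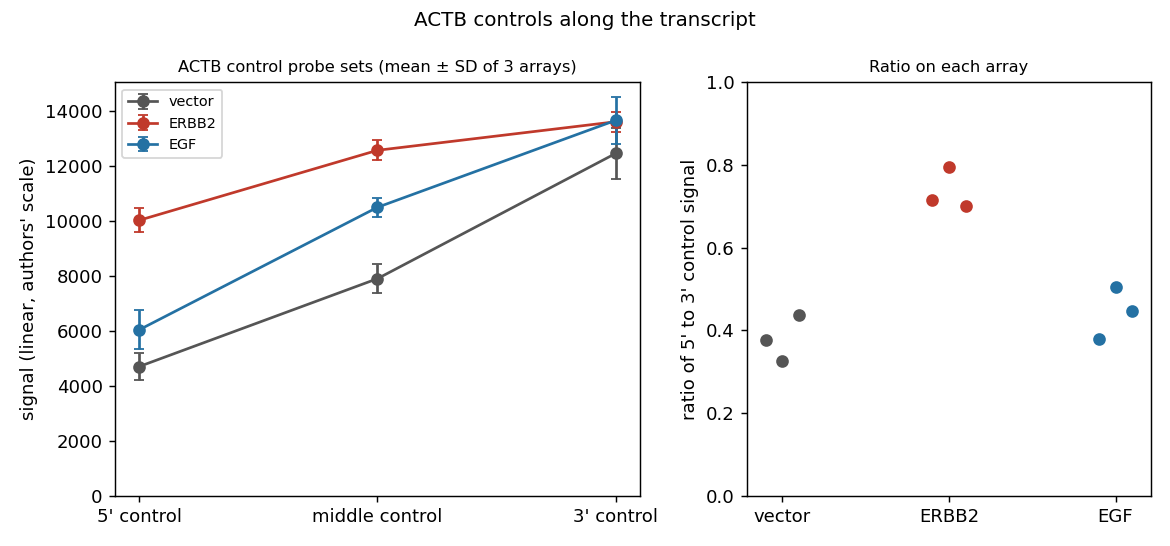
Left, mean ± SD of 3 arrays for the signals of the ACTB control probe sets at the 5′ end, the middle and the 3′ end; right, the 5′ to 3′ ratio on each array. The 5′ signal is 10015 on average on ERBB2 arrays against 4695 on vector, while the 3′ means are 13600 and 12448, and the ERBB2 ratios lie at 0.701 or above.

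The Arp2/3 complex nucleates branched filaments, and its subunits did not move together. On ERBB2 arrays 3 of the 6 tested subunits rose and 1 fell, where 20.9% and 25.1% of all tested genes did. On EGF arrays 2 rose, where 17.2% of genes did. Among genes in the top 25% by signal, 71.8% were called in either direction on ERBB2 and 61.9% on EGF. ARPC2, a core subunit that contacts the mother filament, read 3719, 4005 and 3851 on vector, 6459, 6239 and 7043 on ERBB2 and 5471, 5047 and 5217 on EGF. By this probe set the 3 groups did not overlap, with ERBB2 highest. ARPC2 rose by 0.77 ± 0.07 SE on ERBB2 (adjusted p = 1.1e-08) and by 0.44 on EGF (adjusted p = 3.3e-05). The mean of its 3 probe sets gave 0.37 for ERBB2. Its 2 other probe sets read highest on EGF, with means of 2182, 2341 and 2815, and of 1711, 2008 and 2343. On ERBB2 against vector the first was not called (0.10, adjusted p = 0.272) and the second rose by 0.23 (adjusted p = 0.0118). Both were lower on ERBB2 than on EGF (-0.26, adjusted p = 0.0076, and -0.22, adjusted p = 0.0224). ACTR3, the actin-related subunit ARP3, read 3113 ± 202, 4454 ± 125 and 4181 ± 182 and rose by 0.52 (adjusted p = 3.4e-06) and 0.42 (adjusted p = 6.7e-05). ARPC3, a further core subunit, went the other way on ERBB2: it read 2298 ± 79.6 on vector, 1703 ± 96.2 on ERBB2 and 2243 ± 99.3 on EGF, and fell by 0.43 (adjusted p = 6.3e-05) with no overlap, while its EGF change was -0.04 (adjusted p = 0.767). ARPC1A rose by 0.20 on ERBB2 (1234 ± 56.4 to 1424 ± 65.0, adjusted p = 0.0375). It was not called when vector replicate 1 was left out (0.18, adjusted p = 0.101), vector replicate 2 (0.19, adjusted p = 0.0892) or ERBB2 replicate 3 (0.17, adjusted p = 0.139), and under 4 other settings with adjusted p up to 0.156. ARPC1B, the other isoform of that subunit, and ARPC5 were called in no comparison by their brightest probe sets, with changes between -0.06 and 0.11. Another probe set of ARPC5 rose by 0.45 on ERBB2 (953 to 1308, adjusted p = 4.6e-04) and stood 0.40 above EGF (adjusted p = 0.00275), and the mean of its probe sets was called on ERBB2 (0.30, adjusted p = 0.015).

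Crosslinkers and bundlers held the largest changes among the members. LCP1 (L-plastin), a bundler best known from blood cells and from carcinoma lines, read 18.0, 33.9 and 24.5 on vector, 451, 382 and 384 on ERBB2 and 6.43, 12.3 and 4.37 on EGF. The ERBB2 arrays stood far above the other 6, and the EGF mean of 7.72 ± 4.14 lay under the signal of the filter. LCP1 was 10.3-fold higher on ERBB2 than on vector on the log2(signal + 16) scale (log2 change 3.36 ± 0.19 SE, adjusted p = 4.0e-11), a scale that understates the change of dim genes. It was lower on EGF than on vector by a log2 change of -0.80 (adjusted p = 0.00358), a size that depends on the pseudocount at these dim signals: -1.66 with a pseudocount of 1 and -0.32 with 64, both still called. In RNA from whole cultures, more cells with the transcript and more transcript per cell cannot be told apart. No blood marker was called by limma beside LCP1 against vector (0 also at an unadjusted p under 0.05): of 8 on the list 2 passed the filter, their summed signals were 220 to 245 on vector, 169.0 to 243 on ERBB2 and 214 to 249 on EGF, and PTPRC (CD45, the common leukocyte surface antigen) averaged 11.4, 8.86 and 5.07. Of 6 endothelial markers 2 passed the filter, with summed signals of 79.7 to 102 on vector, 125 to 148 on ERBB2 and 46.7 to 77.3 on EGF. PECAM1, an adhesion molecule of endothelium and also of blood cells, rose on ERBB2 from 29.0 to 90.1 (log2 change 1.27, adjusted p = 7.5e-05) and stood 0.94 above EGF (adjusted p = 0.00275), in the direction of LCP1. KDR fell from 42.5 to 11.5, and the endothelial markers VWF and CDH5 averaged 9.99 and 2.51 on ERBB2, under the filter. The part of such cells in the LCP1 change was not tested. PLS3 (T-plastin), the plastin of non-blood cells, was not called against vector, with means of 2506, 2521 and 2682.

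FSCN1 (fascin), which packs filaments into the parallel bundles of filopodia, read 397, 478 and 229.8 on vector, 881, 789 and 754 on ERBB2 and 1336, 1248 and 1147 on EGF. Groups did not overlap, and here EGF was highest. Its change was 2.23-fold on ERBB2 (log2 1.16 ± 0.16 SE, adjusted p = 9.4e-06) and 3.41-fold on EGF (log2 1.77, adjusted p = 7.6e-08). ACTN1 (alpha-actinin 1), which crosslinks filaments in stress fibres and at adhesions, read 1218, 1479.5 and 1244 on vector, 2309, 2621 and 2420.5 on ERBB2 and 2876, 2560.1 and 2785 on EGF. Both stimulated groups lay wholly above vector and overlapped each other. ACTN1 rose 1.86-fold on ERBB2 (log2 0.89 ± 0.08 SE, adjusted p = 3.5e-08) and 2.08-fold on EGF (log2 1.06, adjusted p = 8.6e-09). ACTN4, its close relative, was called in neither comparison, with means of 717 ± 79.0, 692 ± 14.6 and 696 ± 105. LIMA1 (EPLIN), which stabilises bundles, was also not called by its brightest probe set, with means of 492, 533 and 559. Of its 2 other tested probe sets, 1 rose by 0.36 on ERBB2 (307 to 400, adjusted p = 0.00484) and 1 was not called. The mean of its probe sets was called on ERBB2 (0.25, adjusted p = 0.0479).

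The proteins that lie along filaments, tropomyosins, calponins, transgelins and caldesmon, split in direction. On ERBB2 arrays 3 of 8 rose and 2 fell, and on EGF arrays 3 rose and 2 fell. The shares of all tested genes were 20.9% higher and 25.1% lower on ERBB2, and 17.2% and 19.0% on EGF. Among genes in the top 25% by signal, 71.8% and 61.9% were called in either direction. TPM4, a tropomyosin of non-muscle cells, read 192, 308 and 363 on vector, 799, 787 and 802 on ERBB2 and 485, 578 and 698 on EGF. The 3 groups did not overlap. TPM4 was 2.76-fold higher on ERBB2 (log2 1.46 ± 0.16 SE, adjusted p = 3.4e-07) and 2.03-fold higher on EGF (log2 1.02, adjusted p = 6.0e-05), and its other tested probe sets gave 1.86 and 2.00 for ERBB2. TPM1, whose products include the long tropomyosins of stress fibres, read 1214, 1403 and 1483 on vector, 712, 798 and 829 on ERBB2 and 984, 942 and 823 on EGF. All 6 stimulated arrays lay below vector, and TPM1 fell by 0.80 on ERBB2 (adjusted p = 1.0e-06) and by 0.57 on EGF (adjusted p = 1.1e-04). TPM2 was not called against vector by its brightest probe set, with means of 1476 ± 35.3, 1321 ± 249 and 1751 ± 33.2. Its ERBB2 change of -0.17 (adjusted p = 0.174) became -0.32 (adjusted p = 0.00435) without ERBB2 replicate 2. Its EGF change of 0.25 (adjusted p = 0.0672) passed the threshold without ERBB2 replicate 1 (adjusted p = 0.0377) or ERBB2 replicate 2 (adjusted p = 0.0156), which enter only through the shared spread, and under 4 other settings, with adjusted p down to 0.00332. The other tested probe set of TPM2 was dim, with means of 33.6, 54.5 and 57.1. It rose on ERBB2 (0.51, adjusted p = 0.0361), opposite in sign to the brightest, and on EGF (0.55, adjusted p = 0.0305). CALD1 (caldesmon), which restrains myosin on actin, read 3057, 3185 and 3139 on vector, 1432, 1621 and 1623 on ERBB2 and 2426, 2408 and 2439 on EGF. The 3 groups did not overlap, and CALD1 fell by 0.999 ± 0.07 SE on ERBB2 (adjusted p = 6.0e-10) and by 0.36 on EGF (adjusted p = 4.7e-04). The EGF value was -0.21 with equal medians and -0.60 as the mean of its 10 tested probe sets.

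TAGLN (transgelin or SM22, a textbook SRF target) was dim and read 34.0, 47.0 and 28.4 on vector, 95.9, 79.2 and 90.2 on ERBB2 and 26.7, 30.9 and 25.1 on EGF. By this probe set only the ERBB2 arrays stood above vector. TAGLN was 2.01-fold higher on ERBB2 (log2 1.01 ± 0.19 SE, adjusted p = 3.1e-04), and 0.60 on the log2 scale with a pseudocount of 64. For EGF the change was -0.25 (adjusted p = 0.370). Of its 2 other tested probe sets, 1 rose on ERBB2 (log2 1.64, adjusted p = 1.8e-04). The other did not, reading 43.3 ± 19.3 on vector and 33.9 ± 9.23 on ERBB2 (log2 change -0.21, adjusted p = 0.592). Of 8 smooth muscle markers 5 passed the filter and 1 rose on ERBB2 (SMTN, smoothelin, 35.6 to 93.3), with summed signals of 304 to 316 on vector, 350.3 to 435 on ERBB2 and 215 to 282 on EGF, while MYH11 and DES stayed under the filter. The part of such cells in the TAGLN change was not tested. TAGLN2, the epithelial relative, was not called, with means of 2534, 2651 and 2309. CNN2 (calponin 2) read 299 ± 57.5, 454 ± 17.5 and 487 ± 28.2 and rose by 0.59 on ERBB2 (adjusted p = 4.4e-04) and by 0.69 on EGF (adjusted p = 1.6e-04). CNN3 (calponin 3) read 481, 547 and 470.2 on vector, 389.7, 518 and 441 on ERBB2 and 763, 977 and 604 on EGF. It rose by 0.61 on EGF (adjusted p = 0.00196), with all EGF arrays above the other 6, and its ERBB2 change was -0.15 (adjusted p = 0.411).

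Non-muscle myosin II pulls on filaments, and on ERBB2 arrays 2 of 5 tested genes rose, a heavy chain and a light chain, and 1 fell, another light chain. Shares of all tested genes there were 20.9% higher and 25.1% lower, with 71.8% called in either direction in the top 25% by signal. MYH9, the heavy chain of myosin IIA, read 266, 251 and 294 on vector, 552, 580.1 and 476 on ERBB2 and 379, 347 and 399 on EGF. The groups did not overlap, with a rise of 0.94 ± 0.11 SE on ERBB2 (adjusted p = 4.6e-07) and of 0.45 on EGF (adjusted p = 0.00293). MYH10, the heavy chain of myosin IIB, was not called by its brightest probe set, with means of 1060.3 ± 23.2, 991 ± 84.5 and 917 ± 59.0 (-0.10 on ERBB2). Its other tested probe set rose by 0.47 on ERBB2 (145 to 204, adjusted p = 0.0143) and stood 0.58 above EGF (adjusted p = 0.00523), and the mean of both was called against EGF (0.34, adjusted p = 0.00681). MYL12B, a regulatory light chain, read 5899, 5665 and 6284 on vector, 3332, 3739 and 3853 on ERBB2 and 5123, 5679 and 5161 on EGF. It fell by 0.71 on ERBB2 (adjusted p = 1.1e-07), well below every other array, and its EGF change was -0.16 (adjusted p = 0.102). MYL12A, the neighbouring light chain gene and a near copy in sequence, read 1257, 1041 and 861 on vector and 1609, 1599 and 999.6 on ERBB2, so that the groups overlapped. Its rise of 0.39 (adjusted p = 0.0389) ended without vector replicate 2 (0.39, adjusted p = 0.0760), vector replicate 3 (0.26, adjusted p = 0.216), ERBB2 replicate 1 (0.28, adjusted p = 0.188) or ERBB2 replicate 2 (0.28, adjusted p = 0.189), and was 0.62 without ERBB2 replicate 3. Another 4 settings ended it too, with adjusted p up to 0.177. Because the light chain genes are alike, their probe sets may share signal. MYL9, the light chain of smooth muscle and myoepithelium, passed the filter by little (mean over all arrays 11.9) and was not called.

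Genes of focal adhesions and LIM proteins were higher in 4 of 5 cases on ERBB2 and on EGF arrays. VCL (vinculin), which ties filaments to adhesions under load, read 1104, 1141 and 1119 on vector, 1925, 1938 and 1983 on ERBB2 and 1479, 1428 and 1484 on EGF. The spread within each group was small and the groups did not overlap: VCL rose by 0.79 ± 0.07 SE on ERBB2 (adjusted p = 1.6e-08) and by 0.38 on EGF (adjusted p = 3.0e-04). Averaged with its other probe set, which is dim (12.9, 13.6 and 17.2), the values were 0.38 (adjusted p = 0.0327) and 0.29 (adjusted p = 0.113). ZYX (zyxin), which recruits actin assembly to strained fibres, read 269, 355 and 309.5 on vector, 609.7, 523 and 540.4 on ERBB2 and 473, 439.8 and 426 on EGF. Both stimulated groups lay above vector, and ZYX rose by 0.81 ± 0.11 SE on ERBB2 (adjusted p = 4.0e-06) and by 0.51 on EGF (adjusted p = 0.00127). FHL2, a LIM-domain cofactor at adhesions and in the nucleus, read 391 ± 8.78, 643 ± 55.1 and 770 ± 15.9 and rose by 0.69 (adjusted p = 2.7e-06) and 0.95 (adjusted p = 8.7e-08). PDLIM7 (enigma), an adaptor of alpha-actinin and tropomyosin, read 65.3 ± 19.2, 127 ± 34.3 and 112 ± 20.8 and rose by 0.82 (adjusted p = 0.00239) and 0.67 (adjusted p = 0.0156). Its EGF call was lost when vector replicate 1 (0.48, adjusted p = 0.0953) or EGF replicate 3 (0.54, adjusted p = 0.0892) was left out, and without the variance trend (adjusted p = 0.0646). TLN1 (talin 1), which links integrins to actin, was not called, with means of 176 ± 23.0, 175 ± 44.8 and 167 ± 22.5. The linkers of filaments to the membrane, EZR (ezrin) and MSN (moesin), were not called by their brightest probe sets, with means of 782, 825 and 911 for EZR and 1312, 1428 and 1296 for MSN.

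**Figure D3:**
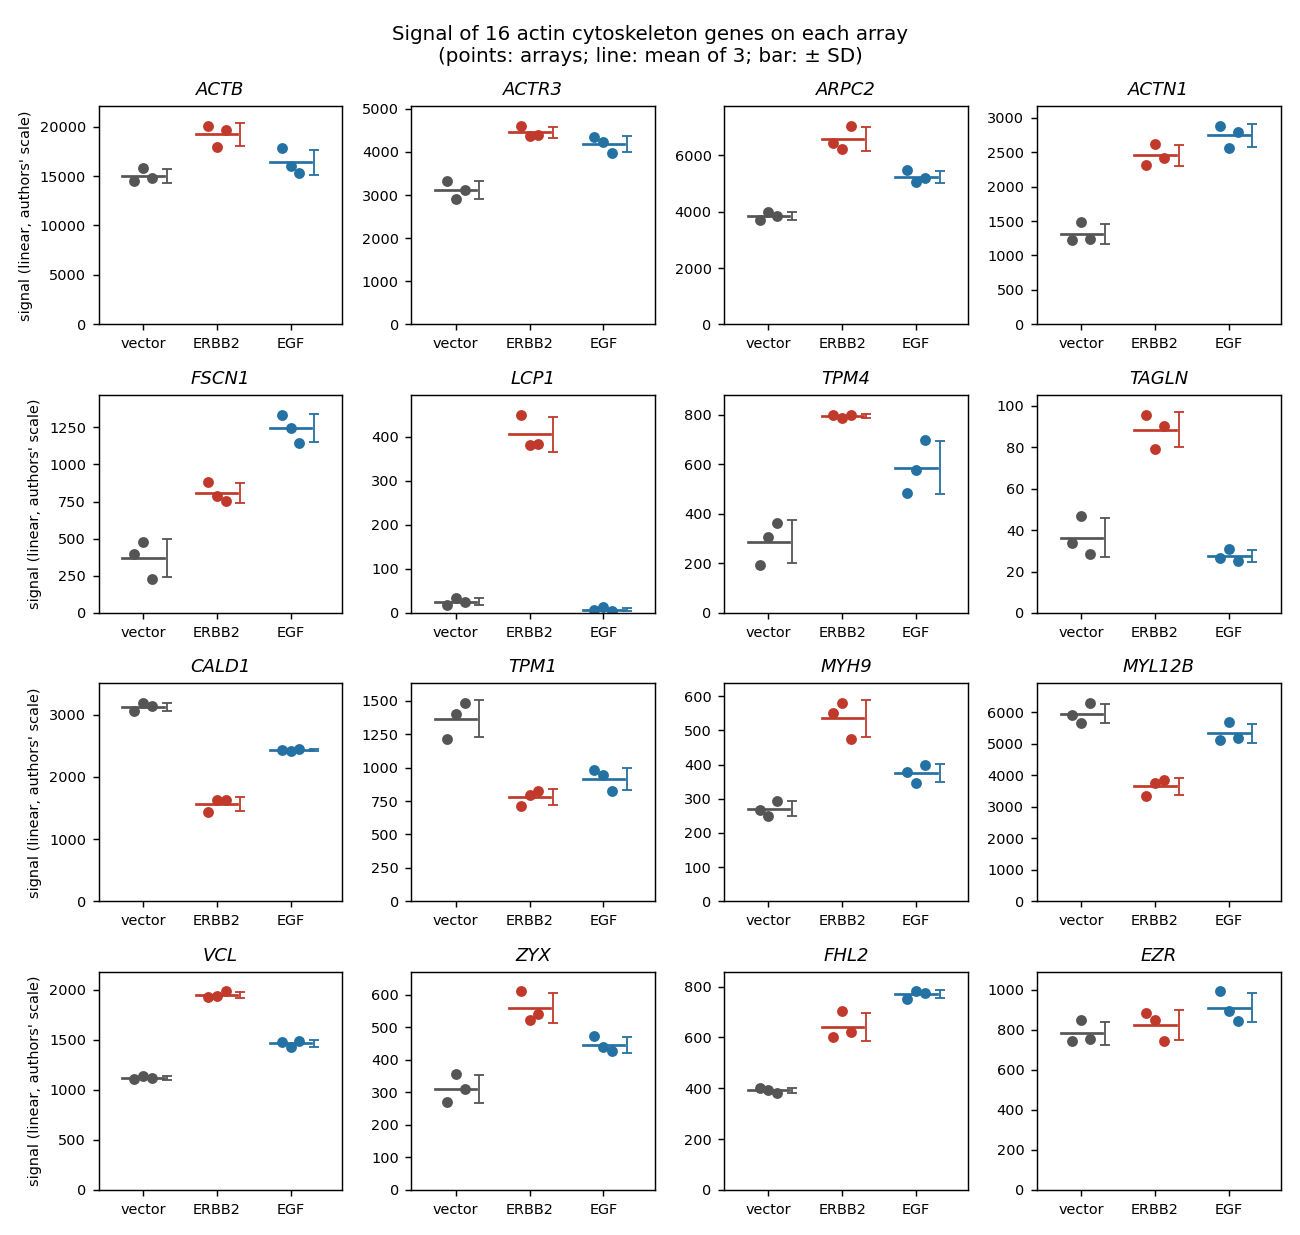
Deposited linear signal of 16 members on each array (points), with the mean of 3 arrays (line) and ± SD (bar); each panel has its own axis from 0, and levels should not be compared between genes. VCL sits near 1122, 1949 and 1463 in vector, ERBB2 and EGF, and CALD1 at 3127, 1559 and 2424.5, with no overlap of groups.

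Set directly against each other, the stimulated groups differed in 16 of 36 members: 8 were higher on ERBB2 and 8 higher on EGF, where 12.8% and 16% of all tested genes were. The either-way share was 44.4% of members against 28.8% of genes, and within the top 25% by signal 45.2% against 51.1%. Median changes were 0.03 for members and 0.01 for genes, and the groups did not overlap for 19 members, where 43.1% of genes did not. This split depends on scaling: it was 11 higher and 7 lower under quantile normalization and 6 and 11 with equal medians, where the median of all probe sets moved from 0.03 to -0.08. LCP1 (log2 change 4.16 ± 0.19 SE, adjusted p = 5.3e-12) and TAGLN (1.26, adjusted p = 6.5e-05) were more than 2-fold higher on ERBB2, where 5.09% of all tested genes differed by at least 2-fold. With a pseudocount of 64 these were 2.71 and 0.73. Of the 2 other TAGLN probe sets, 1 stood 1.73 above EGF (adjusted p = 2.4e-04) and 1 was not called (0.53, adjusted p = 0.187). MYH9 was higher by 0.50 (adjusted p = 0.00157), VCL by 0.41 (adjusted p = 1.7e-04) and ARPC2 by 0.33 (adjusted p = 9.8e-04). The VCL call ended when its probe sets were averaged (0.09, adjusted p = 0.676) and ARPC2 turned to -0.05 (adjusted p = 0.534). On the EGF side, CNN3 stood lowest at -0.76 (adjusted p = 3.1e-04), followed by CALD1 at -0.63 (adjusted p = 1.1e-06), FSCN1 at -0.61 (adjusted p = 0.00906), MYL12B at -0.55 (adjusted p = 9.0e-06), TPM2 at -0.42 (adjusted p = 0.00316), ARPC3 at -0.39 (adjusted p = 3.5e-04) and PFN1 at -0.31 (adjusted p = 0.00322). In signal, CALD1 and MYL12B each had their lowest group mean on ERBB2, while CNN3 and FSCN1 each had their highest on EGF. A fit without the variance trend ended 8 of the 16 direct calls, those of ACTB, ARPC2, CFL1, ZYX, FHL2, FSCN1, PFN1 and TPM2.

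**Figure D4:**
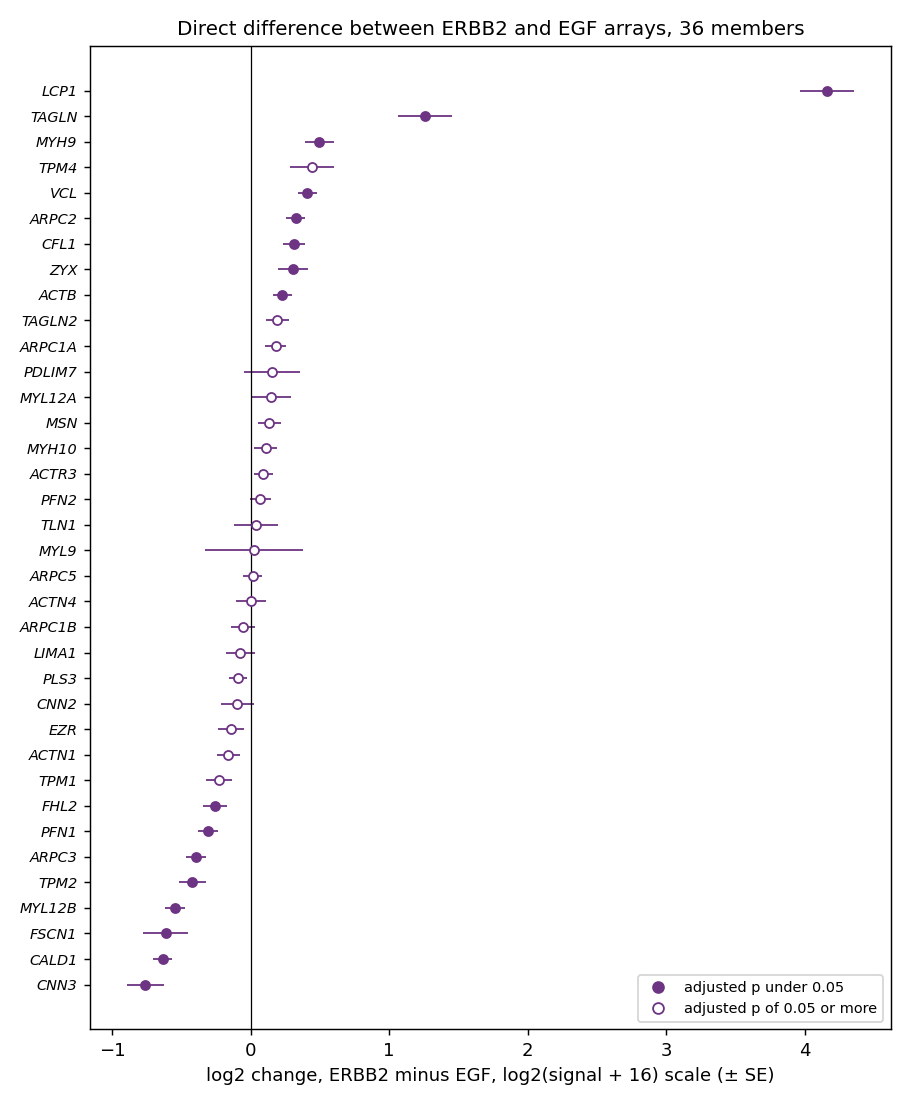
Direct difference between the ERBB2 and EGF arrays on the log2(signal + 16) scale for the 36 members, in order of size, with ± SE from limma (3 arrays a group); filled points have an adjusted p under 0.05. LCP1 lies at 4.16 and TAGLN at 1.26, and the other 34 lie between -0.76 and 0.50.

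Several direct calls were small and lay near the threshold, so that leaving out any of several arrays ended them. ACTB was higher on ERBB2 by 0.23 (adjusted p = 0.0143), and the call ended without ERBB2 replicate 1 (0.20, adjusted p = 0.0647), ERBB2 replicate 3 (0.21, adjusted p = 0.0609), EGF replicate 2 (0.22, adjusted p = 0.0619) or EGF replicate 3 (0.18, adjusted p = 0.0793), and with equal medians (0.12, adjusted p = 0.173). The 2 other ACTB probe sets were not called here (0.21, adjusted p = 0.0529, and 0.17, adjusted p = 0.102). CFL1 was higher by 0.31 (adjusted p = 0.0063) and not called without ERBB2 replicate 3 (0.19, adjusted p = 0.0523). Its other tested probe set was not called here (0.20, adjusted p = 0.114). ZYX was higher by 0.31 (adjusted p = 0.0428), and its adjusted p lay between 0.0516 and 0.162 without vector replicate 3, ERBB2 replicate 1 or 3, or any EGF replicate, with changes from 0.24 to 0.35. FHL2 was lower by -0.26 (adjusted p = 0.0408), and its adjusted p lay between 0.0703 and 0.136 without ERBB2 replicate 1 or 3 or any EGF replicate, with changes from -0.27 to -0.21. In the other direction, TPM4 missed the threshold (0.44, adjusted p = 0.0506) and passed it without vector replicate 1 (adjusted p = 0.00683), vector replicate 3 (adjusted p = 0.0287) or EGF replicate 3 (0.57, adjusted p = 0.0234). Its 2 other tested probe sets were called (0.74, adjusted p = 2.9e-04, and 0.55, adjusted p = 0.00378). So was the mean of its probe sets (0.58, adjusted p = 0.00159). TPM1 passed without EGF replicate 3 (-0.30, adjusted p = 0.0475), and without ERBB2 replicate 3 so did TAGLN2 (0.28, adjusted p = 0.0215) and MYL12A (0.37, adjusted p = 0.0348). A p above the threshold does not show that the groups were alike.

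Most members had more than 1 tested probe set, and for some genes the brightest did not speak for the others. Among the 22 such genes, 14 were called by the brightest probe set on ERBB2 against vector, 12 of these had another probe set called the same way, and none had one called the opposite way. Of the 8 not called, 7 had another probe set that was. Over all tested probe sets of the array, 38.8% were called in this comparison. On EGF against vector 28.8% were, and the brightest probe set called 11 of the 22 genes, 10 of them with another called the same way, while 2 of the 11 not called had another that was. EZR is the clearest: its brightest probe set read 782 ± 58.1 on vector and 825 ± 74.3 on ERBB2, but its 4 others rose by 1.43, 0.87, 0.76 and 1.10, and the next brightest went from 451 to 1229 with 419 on EGF (adjusted p = 4.3e-08). Their mean gave a change of 0.85 for EZR on ERBB2 (adjusted p = 1.2e-05) and of 0.75 against EGF (adjusted p = 1.0e-04), where the brightest probe set gave -0.14. TAGLN2 had another probe set that rose by 0.70 (836 to 1371, adjusted p = 2.0e-06), and CNN3 another that fell by 0.70 (238 to 140.1, adjusted p = 5.5e-05). For ERBB2 against EGF 23.8% of all tested probe sets were called. The brightest probe set called 10 genes there, 5 of them with another called the same way. At least 1 was called the opposite way for 2 of the 10, ARPC2 (2 of 2 others) and CALD1 (1 of 9 others). Of the 12 not called, 8 had another probe set that was; for ACTN1 (0.32 and -0.58) and ACTR3 (0.74, 0.81 and -0.46) such probe sets were called in both directions. The 9 other tested probe sets of CALD1 fell on ERBB2 in 4 cases and missed the threshold in 5, with values from -1.34 to -0.05, so that all were negative against vector. Against EGF they ranged from -0.79 to 0.49, and the mean over probe sets was -0.09 (adjusted p = 0.513). Probe sets of a gene can read different transcripts, and which transcripts these read was not analysed here.

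**Figure D5:**
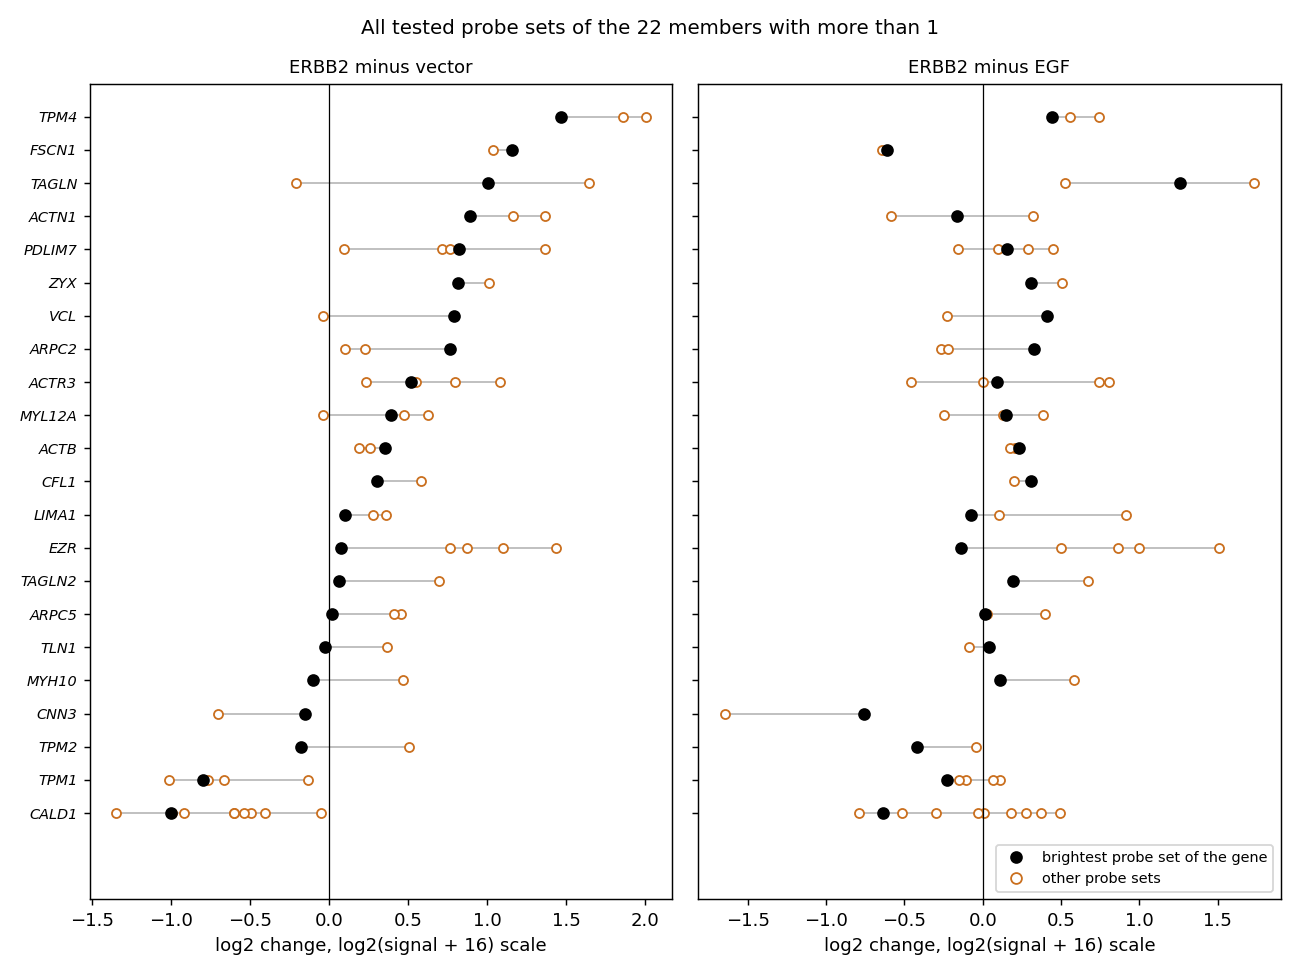
Log2 change of every tested probe set for the 22 members with more than 1, for ERBB2 minus vector (left) and ERBB2 minus EGF (right); filled points are the brightest probe set, used elsewhere, and open points the others. For EZR the brightest lies at 0.08 on the left while the others lie between 0.76 and 1.43.

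SRF itself, which is not a member, read 93.6, 77.5 and 96.0 on vector, 125, 138 and 127 on ERBB2 and 99.8, 110.4 and 112 on EGF. The 3 groups did not overlap. SRF rose by 0.48 ± 0.14 SE on ERBB2 (adjusted p = 0.0106), and its EGF change of 0.24 missed the threshold (adjusted p = 0.235). Of 7 tested genes on the list of SRF and its cofactors, 2 rose and 3 fell on ERBB2, and 2 rose and 2 fell on EGF, with median changes of 0.06 and 0.02. For this and each further list, the shares of all tested genes against vector were 20.9% higher and 25.1% lower on ERBB2. On EGF they were 17.2% and 19.0%. The cofactor MRTFA fell by 0.40 on ERBB2 (134 to 97.5, adjusted p = 0.0498) and by 0.78 on EGF (to 71.5, adjusted p = 6.5e-04), and MRTFB fell by 0.65 and 0.35. ELK4 rose by 0.33 and 0.35. ELK3, a ternary complex factor that can repress, moved in opposite directions: it read 727 on vector, fell by 0.85 to 397 on ERBB2 (adjusted p = 3.5e-07) and rose by 0.38 to 952 on EGF (adjusted p = 0.00406), a direct difference of -1.23 (adjusted p = 7.8e-09).

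Other known SRF targets, 16 tested genes that are not members, were higher on ERBB2 than on EGF in 7 cases and lower in none by limma (8 and 1 at an unadjusted p under 0.05), with a median of 0.43, where 12.8% and 16% of all tested genes were. Quantile normalization gave the same counts, and equal medians gave 4 higher and 1 lower with a median of 0.32. Against vector 6 rose and 4 fell on ERBB2 (median 0.07), and 3 rose and 6 fell on EGF (median -0.02), or 4 and 2 with equal medians. The 16 include SRF, counted above, and DSTN, counted again with the turnover genes below. Of the 7 genes higher than on EGF, CCN1, CCN2, CSRP1 and PDLIM5 also rose on ERBB2 against vector. ACTA2 and DSTN were not called there (0.10 and 0.01) and fell on EGF, and MYLK fell in both. The largest rises were those of the secreted matricellular factors CCN2 and CCN1, which are also known targets of the YAP cofactor: CCN2 read 23.3 on vector, 293 on ERBB2 and 63.9 on EGF (log2 changes 2.99 and 1.05), and CCN1 read 90.8, 394 and 161 (1.98 and 0.77). CSRP1, a LIM protein of actin bundles, rose by 1.15 and 0.76. MYLK, the kinase of myosin light chains, fell by 0.98 on ERBB2 and by 1.70 on EGF, FILIP1L fell by 1.15 and 1.23, CSRP2 fell by 0.53 on ERBB2, and ACTA2 (smooth muscle actin) fell by 0.37 on EGF.

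The further Arp2/3 subunits and activators fell more often than they rose on ERBB2, with 3 higher and 8 lower of 15 (median -0.29), and were even on EGF at 4 and 4 (median -0.02), or 5 and 3 with equal medians. Of all tested genes 20.9% rose and 25.1% fell on ERBB2, and 17.2% and 19.0% on EGF. In the top 25% by signal, 71.8% of genes were called in either direction on ERBB2 and 61.9% on EGF. ACTR3B rose by 1.16 and 1.06, ARPC5L by 0.67 and 0.90, and WASF3 by 0.64 and 0.48, while CYFIP2 of the WAVE complex fell by 0.69 and 0.59. ARPIN, an inhibitor of the complex, fell by 0.75 on ERBB2 and WASF2 by 0.71, and WIPF2 fell by 0.56 and ABI1 by 0.49 on EGF. Of 15 further filament turnover genes 4 rose and 6 fell on ERBB2 (median -0.18), and 6 rose and 7 fell on EGF (median -0.05), or 6 and 3 with equal medians. TMSB4X (thymosin beta 4), which holds monomers, rose by 0.60 and 0.58. CORO1B fell by 1.09 and 0.71 and CFL2, the muscle cofilin, by 1.02 and 0.67, in contrast to CFL1. CAPG, a capping protein, fell by 0.84 on ERBB2, and TWF2 and TWF1, which bind monomers, rose there by 0.52 and 0.33. On EGF, TMOD3 rose by 0.51 and CORO1C by 0.47, and CAP2 fell by 0.61.

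Further focal adhesion genes fell in 8 and rose in 2 of 17 cases on ERBB2 (median -0.31), and fell in 6 and rose in 1 on EGF (median -0.19), or fell in 1 and rose in 2 with equal medians. The members of that class had risen in 4 of 5 cases, and the difference between the lists was not tested. Of all tested genes 25.1% fell and 20.9% rose on ERBB2, and 19.0% fell and 17.2% rose on EGF. VASP and ENAH, which promote elongation, rose by 0.40 and 0.29 on ERBB2, and LASP1 and TES fell by 0.62 and 0.61. ITGA5, the fibronectin receptor subunit, fell by 0.63 on ERBB2 and rose by 0.82 on EGF, reading 237, 148 and 429, a direct difference of -1.45 (adjusted p = 4.1e-08). FERMT2 (kindlin 2) fell by 0.86 on EGF, with ITGAV at -0.42 and PARVA at -0.40. ITGB1 stood 0.41 log2 units lower on ERBB2 than on EGF (log2 difference -0.41). Among 16 further crosslinkers, myosins and membrane linkers, 4 rose and 7 fell on ERBB2 (median -0.15), and 3 rose and 3 fell on EGF (median -0.08), or 4 and 2 with equal medians. ANLN (anillin, of the cytokinetic ring) rose by 1.56 on ERBB2, from 239 to 733, and MYO1E by 1.01, with 0.74 on EGF. NF2 (merlin) rose by 0.35 on ERBB2, and on EGF MYO10, a filopodial myosin, rose by 0.66 and RDX (radixin) by 0.24. SYNPO (synaptopodin), which stabilises stress fibres, fell by 2.09 on ERBB2 and 1.76 on EGF, from 122 to 16.6 and 25.4. MARCKS fell by 0.84 and 0.23, MYL6, the essential light chain of non-muscle myosin, fell by 0.61 on ERBB2, and SPTAN1 (a spectrin) fell by 0.71 on EGF. PALLD (palladin) stood 0.42 higher on ERBB2 than on EGF.

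Set directly against EGF, the further lists differed as follows on ERBB2 arrays. Of the 15 Arp2/3 genes 1 was higher (ABI1, 0.27) and 5 lower, led by ARPIN (-0.66), CTTN (cortactin, -0.65) and NCKAP1 (-0.43). Of the 15 turnover genes 2 were higher, TWF2 (0.55) and DSTN (destrin, 0.18), and 7 lower, led by the capping subunits CAPZA2 (-0.62) and CAPZA1 (-0.56) and by CAPG (-0.55). Of 17 adhesion genes 2 were higher, FERMT2 (0.94) and ENAH (0.27), and 5 lower, LASP1 (-0.34) among them. Of 16 crosslinkers, myosins and linkers 2 were higher, ANLN (1.21) and PALLD, and 4 lower, led by MARCKS (-0.61), RDX (-0.59) and MYO10 (-0.54). With equal medians the higher and lower counts were 0 and 7 for the Arp2/3 genes, 1 and 8 for turnover, 1 and 5 for adhesion, and 2 and 5 for crosslinkers, myosins and linkers.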

How the data were processed

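Expression was measured on Affymetrix arrays, 3 each for vector, ERBB2 and EGF. The authors deposited linear signal intensities that MAS5 produced, per the submitters' processing notes; the MAS5 version is not given in the sources used here. On every array, the 2% trimmed mean was 100.03, so the deposited values had been scaled to a common level, which can move all genes of an array together. Probe sets were named from the platform annotation: 41097 carry 1 gene, 1801 several and 11777 none, and only the first were used to represent genes.

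Values were transformed as log2(signal + 16). Probe sets other than Affymetrix controls with a mean above the 40th percentile (32768 of 54613) were fitted together over all 9 arrays with limma 3.58.1 in R 4.3.3 (lmFit, eBayes with trend, 6 residual degrees of freedom), with Benjamini-Hochberg adjustment over all of them and a threshold of 0.05. The fit was tested on simulated data. The probe set with the highest mean over all arrays stands for a gene. No detection calls were used, so a dim signal is not shown to be above background.

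Members and further lists were chosen with earlier results of these data known, so no list is independent evidence of its direction. All members are accounted for. Described in full are those changed at least 2-fold in a called comparison, plus ACTB, VCL, ZYX and SRF, and the other called members more briefly. ACTG1 was also planned for this but carries no value. From each further list, up to 3 called genes with the largest change per direction and comparison are named. The results of 1 further list are not reported here.

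The alternatives were the pseudocount (1 or 64), the filter (none or the 60th percentile), the scaling (quantile normalization or equal array medians), no variance trend, array weights, the compared arrays alone, the replicate number as a block, each array left out, all tested probe sets of a gene averaged, and control probe sets allowed to stand for a gene. Promoter windows came from RefSeq (GRCh38.p14) and were searched on both strands.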

Additional observations from a re-analysis of the deposited data

How the results depend on the processing

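The 3 arrays a group limit precision. The calls lost most often were those of ZYX, ACTB and FHL2 for ERBB2 minus EGF, which held in 11, 13 and 14 of 21 alternatives, and of MYL12A and ARPC1A for ERBB2 minus vector, in 13 and 14. Over the 21 alternatives, 425 of 441 values of members called for ERBB2 minus vector kept their direction and their call, 330 of 336 for EGF minus vector and 301 of 336 for ERBB2 minus EGF; 18 of 21, 13 of 16 and 6 of 16 genes did so under every alternative. A change of sign in a change called under neither setting, which occurred 62 times, was counted as unchanged. Counts of members higher and lower stayed within 1.5 times of those reported for both comparisons with vector; without the variance trend, ERBB2 minus EGF gave 4 higher and 4 lower in place of 8 and 8, and the cause was not tested. With a gene's tested probe sets averaged, 4 values turned: CFL1 for EGF minus vector to 0.19 (adjusted p = 0.0387), and for ERBB2 minus EGF, ARPC2 to -0.0539, LIMA1 to 0.31 (adjusted p = 0.0247) and EZR to 0.75 (adjusted p = 1.0e-04). This setting differs by construction in which probe sets it reads.

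Same-numbered replicates did not deviate together (correlations between -0.03 and 0.02), so the numbers give no pairing. With the replicate number as a block, the members counted higher and lower were 17 and 4 for ERBB2 minus vector, 13 and 3 for EGF minus vector and 8 and 8 for ERBB2 minus EGF; in the last, ZYX was no longer called (0.31, adjusted p = 0.0558) and TPM4 was (0.44, adjusted p = 0.0152).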
